A study of Drosophila melanogaster with 2 samples.

Results

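The genes described here encode the proteins of the cytosolic ribosome of Drosophila melanogaster, together with their paralogues. They were chosen by symbol: every protein-coding gene whose symbol starts with RpL or RpS and a digit, plus RpLP0, RpLP1, RpLP2 and sta, with RpLP0-like left out. This gave 92 of the 13945 protein-coding genes on 6 chromosome arms, 53 named for the large subunit and 39 for the small subunit (sta is a small-subunit gene). Of the 92, 18 are copies in 9 duplicated pairs, 4 have symbols ending in -like, and 70 are single-copy by this naming.

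The samples were 2 biological replicates of 1 group, whole adult females of unknown age from a transgenic line that stably makes Mnt with GFP at its C-terminal end. Chromatin was sheared by sonication to 200 to 800 bp, per the labels, and immunoprecipitated with an antibody against GFP before sequencing (ChIP-seq). Both replicates came from this single line, and a whole fly mixes all tissues, so the lists do not say in which cells a gene was occupied. There was no second group and the control libraries were not analysed here, so the comparisons below set ribosomal protein genes beside all protein-coding genes as descriptions, without a test.

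Ribosomal protein genes are among the most highly transcribed genes of a growing cell, and each subunit needs its proteins in equal amounts. In Drosophila many of them start at a polypyrimidine initiator, the TCT element, and loss of a single gene copy often gives the Minute phenotype of slow growth and thin bristles. Mnt is a repressor of the Myc network. As a dimer with Max it recognises the E-box CACGTG, which is also the site of the growth-promoting dimer of Myc and Max.

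The values are peak lists on the dm6 build. Each region has a summit, its most enriched base, and a signal, the authors' own value for the enrichment of that region. The optimal list holds the 7451 peaks that the authors kept as reproducible, with signals from 77.1 to 2444 and a median of 141. Each replicate also has its own list of 30000 regions that runs down into weak background, and the 7451 strongest regions of it are called its top list here. Read depth is unknown. A gene is called bound when an optimal summit lies within 500 bp of any of its annotated transcription start sites (TSSs).

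Of the E-boxes found at ribosomal protein genes, 8 are printed first, because their bases and their place relative to the TSS recur in the results. Each is read in the direction of the gene from the dm6 reference, with CACGTG in capitals.
RpL35: tgcgttaagcCACGTGctgaatttct
RpL37-1: tgctagaagcCACGTGctaaatttgt
RpL8: tacggtaagcCACGTGctaaattttg
RpS4: tgcagctagcCACGTGctaagttttg
RpL7: gcgcgcgtgtCACGTGtgcacgcatt
RpL24: acgccttcggCACGTGgtggtatttt
RpL24-like: ttcagcagcaCACGTGctagcagctt
RpL5: atttctactcCACGTGattttaataa

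The first 4 lie at chrX:5672767-5672792 (plus strand), chrX:15139299-15139324 (minus strand), chr3L:2587510-2587535 (plus strand) and chr3L:13041852-13041877 (plus strand). The next 3 lie at chr2L:10201010-10201035 (plus strand), chr2L:13395160-13395185 (minus strand) and chr3R:11431536-11431561 (minus strand). The RpL5 stretch lies at chr2L:22536582-22536607 (minus strand). RpL35, RpL37-1, RpL8 and RpS4 share 11 bases in a row around the E-box, AGCCACGTGCT, and it lies at a like place in each: 45, 55, 66 and 63 bp downstream of the nearest TSS. At RpS4 the nearest TSS is an internal start, and the E-box lies farther from the TSS of the canonical transcript. On the 6 arms AGCCACGTGCT occurs 64 times, counting both strands, and 6 of these (9.38%) lie within 100 bp of an optimal summit. Of those 6, 4 are at these ribosomal protein genes, 1 lies at the shared start of CG2712 and ttm50 (signal 843), and 1 near CG43066 (signal 164). Of the 16428 CACGTG on the arms, 668 (4.07%) lie that close to an optimal summit. The 11 bases were singled out after the sequences had been seen, from 4 sites already picked for lying near a summit. The 9.38% holds those 4 sites by construction, so setting it beside the 4.07% does not measure an enrichment. The optimal signals at the 4 genes were alike: 752 at RpS4, 597 at RpL35, 589 at RpL8 and 585 at RpL37-1.

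Mnt-eGFP was bound at nearly every ribosomal protein gene, and every gene without a peak was a paralogue. Of the 92 genes, 84 (91.3%) were bound, against 38.1% of all protein-coding genes. The large subunit had 50 of 53 bound (94.3%) and the small subunit 34 of 39 (87.2%). All 70 single-copy genes were bound. The 8 others were each a copy or a -like relative of a bound gene, and included RpL10Aa, RpL22-like, RpL37-2, RpS10a, RpS15Ab, RpS19b and RpS28-like.

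Each replicate on its own also reached most of these genes, but not every single-copy gene. Of the 70 single-copy genes, the top list of replicate 1 reached 97.1% and that of replicate 2 reached 94.3%. In replicate 1, 83 ribosomal protein genes had a region of the top list within 500 bp, against 39.0% of all protein-coding genes, and in replicate 2 there were 79, against 33.2%. Those in both top lists numbered 78, 8 were in neither, and 6 were in 1 of them. RpL15, RpL38, RpL40 and RpS28a were among those in the top list of replicate 1 alone, and RpS6 was in that of replicate 2 alone. These 5 were bound weakly, with optimal signals of 79.9 to 119. In the full pooled list, which includes weak background and reaches 62.9% of all protein-coding genes, 87 ribosomal protein genes had a region.

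The peaks were also stronger than at most genes. Bound ribosomal protein genes had a median optimal signal of 421 (middle 50% from 267 to 599), against 171 (115 to 273) over all bound genes, and a median rank of 562.5 against 2809.5. A peak among the 500 strongest lay at 39 of the 92 (42.4%), against 4.07% of all protein-coding genes. That class held 23 of 53 large-subunit genes and 16 of 39 small-subunit genes. Median signals were 429 for the large and 411 for the small subunit, close to each other beside a range of 77.3 to 1918 over all the bound genes.

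**Figure D1:**
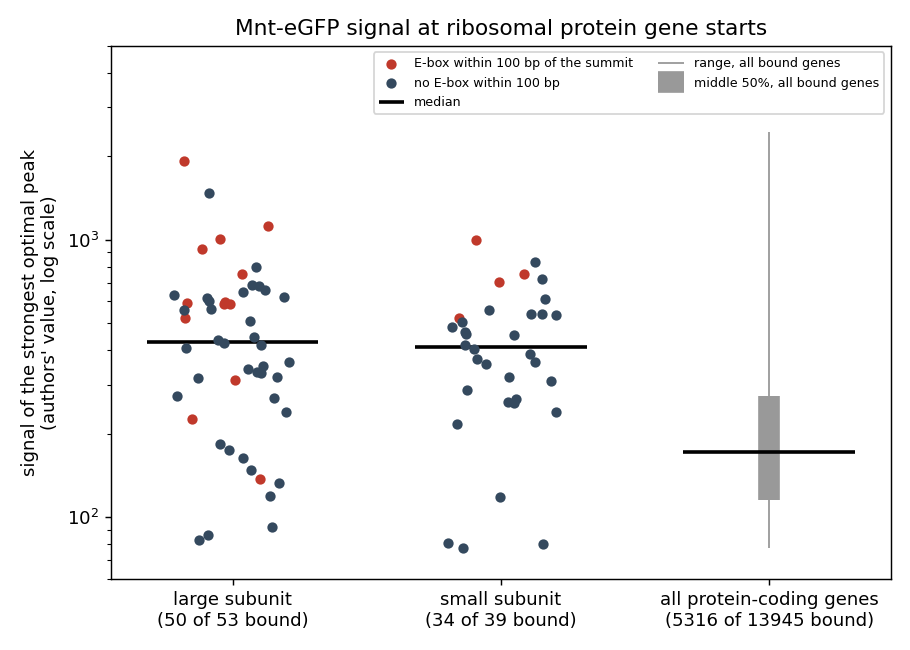
Signal of the strongest optimal peak within 500 bp of a TSS (log axis), for bound large-subunit genes, bound small-subunit genes and all bound protein-coding genes. Points are genes, red where an E-box lies within 100 bp of the summit, black lines are medians (429, 411 and 171), and the grey bar and line are the middle 50% and the range. Both subunits lie mostly above the middle of all bound genes, and RpL11 (1918) is the highest point.

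RpL11 and RpL34b had the highest signals of all the ribosomal protein genes, and below them the values fell gradually. RpL11, whose protein sits with 5S ribosomal RNA in the large subunit, had a signal of 1467 in replicate 1 (rank 3), 453 in replicate 2 (rank 16) and 1918 in the optimal list (rank 4). RpL34b had 1101 in replicate 1 (rank 12), 370 in replicate 2 (rank 43) and 1472 in the optimal list. Signals were lower in replicate 2 at most genes, so the replicates are compared by rank, and by rank both genes were near the top of each. RpL24-like, related to the yeast biogenesis factor Rlp24 that holds the place of RpL24 on pre-ribosomes, had ranks of 52 and 73 in replicates 1 and 2 and an optimal signal of 1121. RpL24 itself had ranks of 78 and 241 and a signal of 923. RpL7 had ranks of 49 and 308 and a signal of 1008. The next genes of the large subunit were RpL14 (optimal signal 799), RpL29 (753), RpL3 (686), RpL36 (683) and RpL23A (657).

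Near the top of the small subunit, RpS27 had a signal of 713 in replicate 1 (rank 82), 117 in replicate 2 (rank 762) and 830 in the optimal list, so its replicates were far apart in rank. RpS4 (752), RpS2 (724) and RpS24 (707) were closer: their ranks were 170 and 186, 207 and 156, and 220 and 189 in replicates 1 and 2. The 10 strongest also included RpS10b (613), RpS13 (559), sta (539), RpS16 (538) and RpS21 (536).

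At the low end the signals reached the edge of the optimal list. RpS15 had 77.3 (rank 7422 of 7451), RpS6 79.9, RpS28a 80.9, RpL36A 82.9, RpL15 86.2 and RpL38 91.9. RpS15 ranked 8202 in replicate 1 and 10691 in replicate 2, outside both top lists. RpS6 encodes the classical substrate of S6 kinase and lies on the X, and it ranked 10545 in replicate 1 and 3183 in replicate 2. Of these 6 weakly bound genes RpS28a is the 1 copy, and the others are single-copy genes.

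Some smaller groups can be named by role, chosen after the values had been seen. The stalk proteins, which recruit elongation factors to the large subunit, were bound in a graded way: RpLP0 408, RpLP1 268 and RpLP2 183. The genes that encode a ribosomal protein fused to ubiquitin or a ubiquitin-like protein had 416 at RpS30, 361 at RpS27A and 119 at RpL40. None of these 6 was among the 500 strongest. Genes with an annotated small nucleolar RNA inside their span, on the same strand, numbered 29. All 29 were bound, with a median signal of 444. Of the 63 genes without one, 55 were bound (87.3%), with a median of 416. The bound share over all genes that hold small nucleolar RNAs was not computed. All 15 genes on the X were bound, against 41.9% of all protein-coding genes there, and so were all 14 on 3L, against 37.7%. Their median signals were 539 on the X and 347 on 3L.

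**Figure D2:**
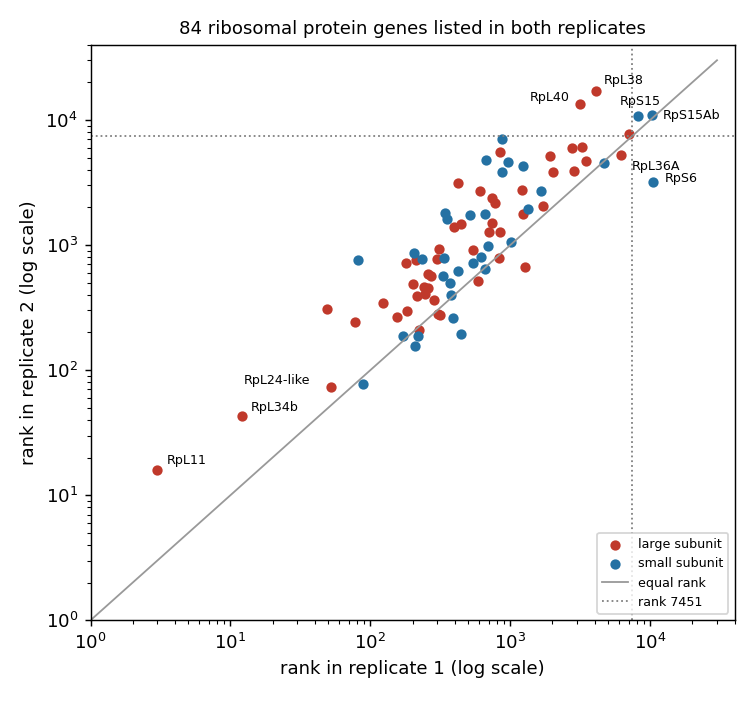
Rank of the strongest region within 500 bp of a TSS in replicate 1 (x axis) and replicate 2 (y axis), both log axes with rank 1 the strongest, for the 84 ribosomal protein genes listed in both replicates. Red points are large-subunit and blue points small-subunit genes, the line is equal rank and the dotted lines mark rank 7451. RpL11, RpL34b and RpL24-like are near the top in both, most points lie above the line, and RpS6 lies far below it.

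The ranks were better in replicate 1 for most of these genes. Of the 83 bound genes listed in both replicates, 68 (81.9%) ranked better in replicate 1, against 3195 of 5022 other bound genes (63.6%). Median ranks over the ribosomal protein genes were 537 in replicate 1 and 888 in replicate 2. Ranks differed by a large factor at RpS27, RpLP0 (426 in replicate 1 and 3117 in replicate 2), RpL26 (845 and 5555), RpS12 (869 and 7049) and RpS18 (671 and 4823). Counted in places, the gaps were wider at weakly bound genes such as RpL38 (4106 and 17063) and RpL40 (3166 and 13289). The cause was not tested.

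Within the duplicated pairs 1 copy was usually strongly bound and the other weakly or not at all. In 6 of the 9 pairs exactly 1 copy was bound, in 3 both were, and in none was neither. Protein identity within the pairs, from the annotated coding sequences, ran from 63.9% to 100%.

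In each pair with 1 bound copy, the bound one lay above the upper quartile of all bound genes (273). RpS10b had 613 and RpS10a no optimal peak, with a weak region at rank 17530 in replicate 1 and none in replicate 2 (75.0% identical). RpS10a is a single-exon gene. RpL37-1 had 585, while RpL37-2 was in no list (75.3% identical). RpS19a had 458, while RpS19b, a germline-enriched copy, was in no list within 500 bp (65.8% identical). The nearest optimal summit to RpS19b was 617 bp away and nearer to CG5854. RpS15Aa had 387, and RpS15Ab had only weak regions, at rank 10277 in replicate 1 and 10878 in replicate 2, although the proteins are 97.7% identical. RpL10Ab had 331, and RpL10Aa (63.9% identical) was in no list, with the nearest optimal summit 58485 bp away.

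In 1 pair only were both copies bound at a summit nearest to their own start. RpS14a and RpS14b encode the same protein (100% identical) and lie in tandem on the X, with their TSSs at chrX:7933742 and chrX:7934898 on the plus strand. RpS14b had ranks of 339 and 1795 in replicates 1 and 2 and an optimal signal of 466. RpS14a had ranks of 1338 and 1926 and a signal of 257, at a separate summit. The copies were farther apart in rank in replicate 1 than in replicate 2. RpL34b (1472) and RpL34a (342) are 85.5% identical, and the RpL34a summit lay at -163 bp from its TSS and 66 bp from the start of Trmt61. RpS28b (522) and RpS28a (80.9) are 82.8% identical. The RpS28a summit lay at -127 bp from its TSS and 67 bp from the start of Axn, and RpS28a was not listed in replicate 2. The peaks counted for RpL34a and RpS28a are therefore nearer to another gene.

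**Figure D3:**
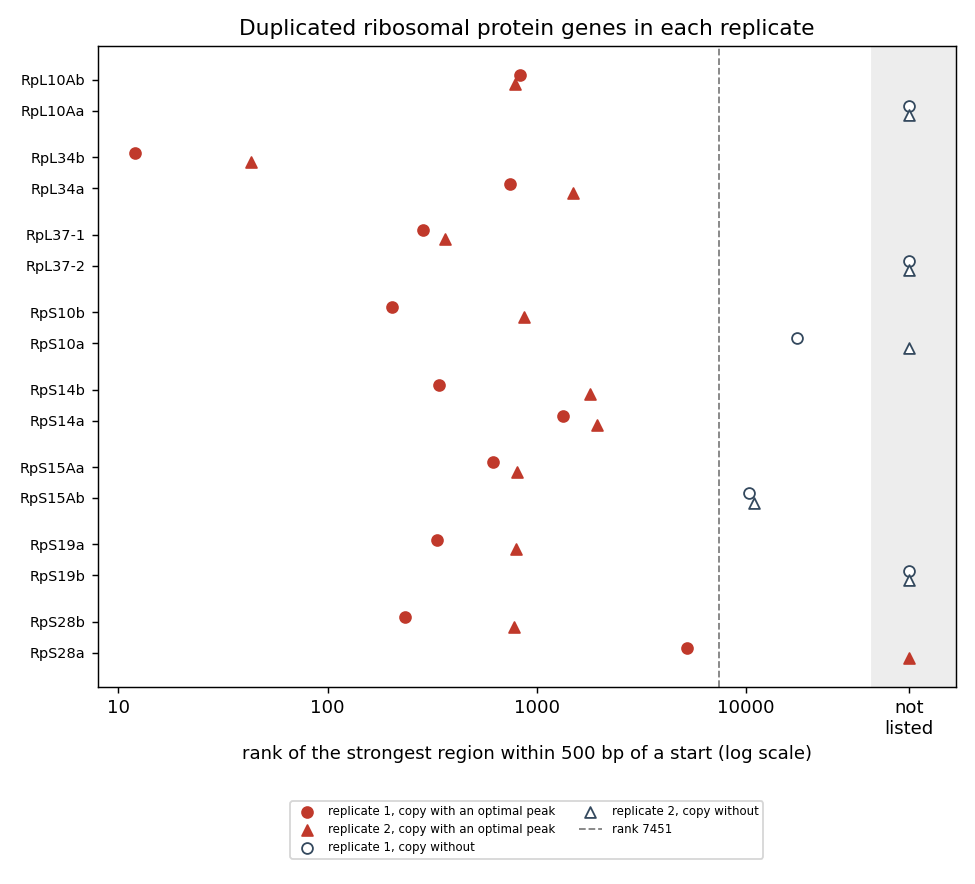
Rank of the strongest region within 500 bp of a TSS (log axis, rank 1 the strongest) for both copies of 8 of the 9 duplicated pairs, the stronger copy above the weaker. Circles are replicate 1 and triangles replicate 2, red for copies with an optimal peak and open for copies without, and the grey band holds copies not listed. In each pair the upper copy ranks ahead in both replicates, and RpL10Aa, RpL37-2 and RpS19b are in neither list.

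Exon structure ran along with this. In 7 pairs the copy with more exons was the stronger or the only bound one, in 1 (RpL34) it was the copy with fewer, and in the RpS19 pair both had the same number. Single-exon genes made up 4 of the 8 unbound genes, RpL10Aa, RpL37-2, RpS10a and RpS15Ab, and 2 of the 84 bound ones, RpLP2 and RpS28a. The bound share of single-exon genes over all protein-coding genes was not computed, so these counts stand without a background. The 4 -like genes were split. RpL24-like (1121, 35.5% identical to RpL24) and RpL7-like (313, 35.0% identical to RpL7) were bound. RpL22-like, a germline-enriched paralogue 47.2% identical to RpL22 (650), was in no list, nor was RpS28-like, 43.8% identical to RpS28a and 44.6% to RpS28b.

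The initiator was present at some unbound copies, such as RpL37-2, as well as at bound ones. The core of the TCT element was searched as CTTT on the gene's strand, with its C within 5 bp of the TSS of the canonical transcript. A core at another annotated start is not counted. It was found at 42 of the 92 genes (45.7%), against 5.72% of all protein-coding genes, and at 25 large-subunit and 17 small-subunit genes. Of the 42 genes with it 40 were bound, and of the 50 without it 44. Bound shares over all protein-coding genes with and without the core were not computed. The starts of the RpS14 and RpS19 pairs are shown as examples in which a single copy holds the core, the weaker one at RpS14 and the bound one at RpS19. A single copy also holds it in 3 other pairs, at RpL34b (the stronger copy), RpL37-2 (unbound) and RpS15Aa (bound). Each stretch is 30 bases of dm6, read along the gene with the TSS at base 16, and CTTT is in capitals where it starts within 5 bp.
RpS14a: ttgacagctacgtcaaccttCTTTtttgat
RpS14b: cagctgtgttgtttttgccttctttttttc
RpS19a: ccaacttcacgcgccttgttCTTTtttccg
RpS19b: acttgccaatcgtccattttgactaaagtc

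These lie at chrX:7933727-7933756 and chrX:7934883-7934912 (plus strand) for RpS14a and RpS14b. RpS19a is at chrX:16637879-16637908 (plus strand) and RpS19b at chr3R:23933516-23933545 (minus strand). In RpS14b, the stronger copy, a CTTT lies just beyond the limit of 5 bp. RpS19a had an optimal signal of 458 and RpS19b no peak within 500 bp.

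Summits sat closer to the start at ribosomal protein genes than elsewhere. The median distance from summit to nearest TSS was 26 bp, against 76 bp over all bound genes, and 75 of the 84 summits (89.3%) lay within 100 bp, against 58.1%. Along the gene, and over genes with a summit in all lists, the median position was 0 bp for 83 ribosomal protein genes and -47 bp, that is upstream, for 5105 bound genes. A summit nearer to a neighbouring start also counts for a gene. Another protein-coding start lay within 500 bp at 2893 of all 5316 bound genes and at 35 of the 84. The part of this in the differences was not tested. Large-subunit summits had a median of -9.5 bp and small-subunit summits of 11 bp. The position moved a little between replicates: the medians were -5 bp in replicate 1 and 11 bp in replicate 2, and the replicate 2 summit lay downstream of the replicate 1 summit at 61 of 83 genes. Large-subunit summits were the more upstream in each replicate: the medians were -15 bp for the large and 8 bp for the small subunit in replicate 1, and 8.5 bp for the large and 31 bp for the small subunit in replicate 2.

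**Figure D4:**
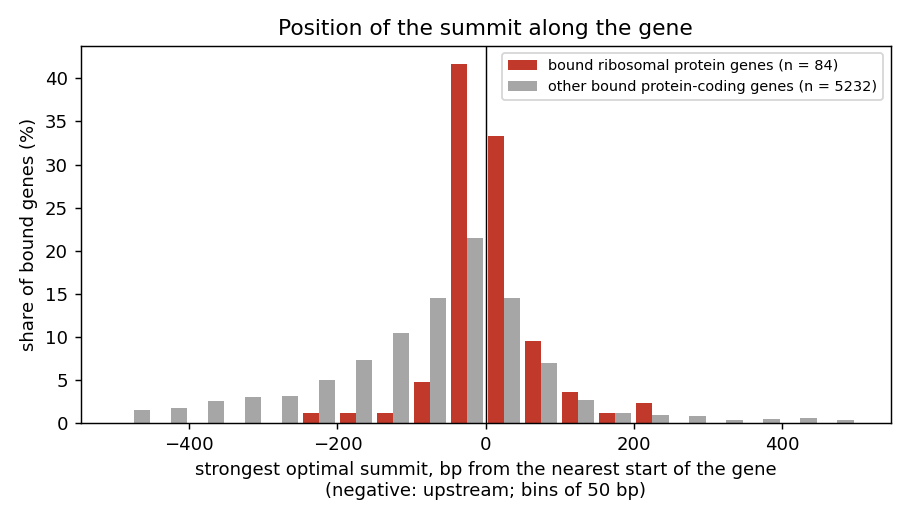
Position of the strongest optimal summit relative to the nearest TSS of the gene, in bins of 50 bp with upstream negative (x axis), as the share of bound genes (y axis). Red bars are the 84 bound ribosomal protein genes and grey bars the other 5232 bound protein-coding genes. The bins to either side of the TSS hold 35 and 28 of the 84 ribosomal protein genes, and the other genes spread farther upstream.

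By annotation, 44 of the 84 summits (52.4%) fell in a 5′ UTR, against 37.5% over all bound genes, with 23 of 50 in the large and 21 of 34 in the small subunit. Another 32 were intergenic, 6 intronic and 2 in a coding exon. More than 1 optimal summit lay within 500 bp at 15 of 50 bound large-subunit genes and 16 of 34 small-subunit genes, against 25.0% over all bound genes. The summit's nearest protein-coding start was the ribosomal protein gene itself at 81 of the 84. The 3 exceptions included RpL34a and RpS28a.

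A neighbouring start was somewhat more common than over all genes. Another protein-coding start lay within 500 bp at 37 of the 92 genes (40.2%), against 30.9% of all protein-coding genes. Of these 37, 35 were bound (94.6%), against 67.1% of the 4309 such genes in the annotation, with a median signal of 510. Of the 55 genes with no such neighbour 49 were bound (89.1%), against 25.1% of the 9636 such genes in the annotation, with a median of 349. An example of a shared peak is RpL13 (614), whose summit also counts for Dref, the gene of the factor that binds the DRE promoter element.

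The E-box was more frequent at ribosomal protein peaks than at others, but most of them lacked it. CACGTG lay within 100 bp of the summit at 17 of the 84 bound genes (20.2%), against 8.54% of all bound genes. It was found at 13 of 50 large-subunit genes (26.0%) and 4 of 34 small-subunit genes (11.8%). The large-subunit genes were RpL5, RpL6, RpL7, RpL7-like, RpL8, RpL11, RpL24, RpL24-like, RpL29, RpL32, RpL35, RpL37-1 and RpL37A, and the small-subunit genes included RpS4, RpS24 and RpS28b. Around the TSS of the canonical transcript instead of the summit, CACGTG lay within 100 bp at 2.92% of all protein-coding genes, bound or not. The large subunit was above this, with 13 of 53 genes (24.5%). The small subunit was near it, with 1 of 39 (2.56%). RpS4, whose E-box lies 63 bp from an internal start, is not in this count. Windows around every annotated TSS were not searched.

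Peaks with the E-box were the stronger ones. The 17 had a median optimal signal of 597 and a median rank of 288, while the 67 without had 371 and 711. Over all bound genes the medians were 436 with CACGTG and 162 without. Among the 17, 14 were in the 500 strongest peaks. An E-box did not go with a strong peak at every gene: RpL5 had 137, RpL37A 225 and RpL7-like 313. Conversely RpL34b (1472), RpS27 (830) and RpL14 (799) had no CACGTG within 100 bp.

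The E-box lay mostly inside the transcribed region at ribosomal protein genes. It was downstream of the nearest TSS at 14 of 17 (82.4%), against 208 of 437 other bound genes with the motif (47.6%). These are counts of genes, so an E-box between neighbouring starts can count for each gene. Another protein-coding start lay within 500 bp at 29.4% of the 17 and at 53.7% of all bound genes with the motif. The effect of this on the shares was not tested. In 12 of the 17 genes the E-box fell in the 5′ UTR, in 2 in an intron and in 3 it was intergenic, at RpL11 (-43 bp), RpL24 (-41 bp) and RpL29 (-56 bp). Across the 17 it lay from -56 to 273 bp from the TSS, and a median of 35 bp from the summit. The outer bases differed too: CCACGTGC on either strand made up 5 of the 17 (29.4%) and 13.1% of the 344 E-boxes at all bound genes, and ACACGTGC 3 of the 17 (17.6%) and 34.6%. Those 5 include RpL35, RpL37-1, RpL8 and RpS4, whose shared bases around the E-box were described above, so this is not a separate observation.

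A DRE or Motif 1, promoter elements that other factors bind, was found more often than the E-box. TATCGATA, the DRE, lay within 100 bp of the summit at 20 bound genes (23.8%, against 11.2% of all bound genes), and GGTCACAC, known as Motif 1 and bound by M1BP, at 11 (13.1%, against 9.20%). Either was found at 31 (36.9%), against 19.4% of all bound genes, with 21 in the large and 10 in the small subunit. Around the TSS of the canonical transcript instead of the summit, and with unbound genes counted too, the DRE was the other way about. It lay within 100 bp at 13 of 53 large-subunit genes (24.5%) and 13 of 39 small-subunit genes (33.3%), against 7.51% of all protein-coding genes. The 25 genes with either and no E-box had a median signal of 334. The remaining 42 had none of the 3 motifs and a median of 411, and they included 18 of the 39 genes with a peak among the 500 strongest.

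The 6 genes that have an E-box together with a DRE or Motif 1 share an order: RpL6, RpL7, RpL7-like, RpL24-like, RpL37-1 and RpL37A. In all 6 the DRE or Motif 1 lay upstream of the nearest annotated TSS and the E-box downstream, an arrangement found at 27 of the 89 other bound genes with both (30.3%). The 89 include genes that start within 500 bp of 1 of these 6, such as CG5276 and Ripalpha. The effect of such neighbours on the share was not tested. RpL37A has the order only relative to an internal start: its Motif 1 is in the 5′ UTR, downstream of the TSS of the canonical transcript. With canonical starts, an alternative added after the data were seen, 5 of the 6 genes and again 27 of the 89 had it. All 6 are large-subunit genes, and no small-subunit gene had both. Counted separately over the ribosomal protein genes, 14 of 17 E-boxes were downstream, and 17 of 20 DREs and 9 of 11 Motif 1 sites upstream. The shared order is therefore not an observation apart from those counts. The DRE and Motif 1 stretches of these 6 genes are printed from dm6 in the direction of the gene, with the motif in capitals, and at RpL7 it reads as its reverse complement.
RpL24-like: agccagtgtTATCGATAagcagtgac
RpL37-1: gacaaaaacTATCGATActcgcgcaa
RpL7-like: cacatcactTATCGATAgcaaagcac
RpL6: gaccgccctGGTCACACcgctctaga
RpL7: ccgcggccaGTGTGACCgtttggccg
RpL37A: tcgagcggcGGTCACACttttcgctc

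They lie at chr3R:11431606-11431631 (minus strand), chrX:15139408-15139433 (minus strand), chr2L:12056302-12056327 (plus strand), chr3R:31596209-31596234 (minus strand), chr2L:10200981-10201006 (plus strand) and chr2L:5070981-5071006 (plus strand). At RpL24-like the DRE lay at -36 bp and the E-box at 33 bp, and at RpL37-1 they lay at -53 and 55 bp. RpL7-like had -11 and 33 bp. With Motif 1 the positions were -17 and 35 bp at RpL6, -10 and 18 bp at RpL7, and -6 and 94 bp at RpL37A. The summits of RpL24-like (4 bp), RpL6 (3 bp), RpL37A (4 bp) and RpL37-1 (25 bp) lay between the elements, that of RpL7 (35 bp) downstream of both and that of RpL7-like (-34 bp) upstream of both. Over all ribosomal protein genes the 20 DREs had a median position of -39 bp, with 17 upstream, and the 11 Motif 1 sites one of -10 bp.

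**Figure D5:**
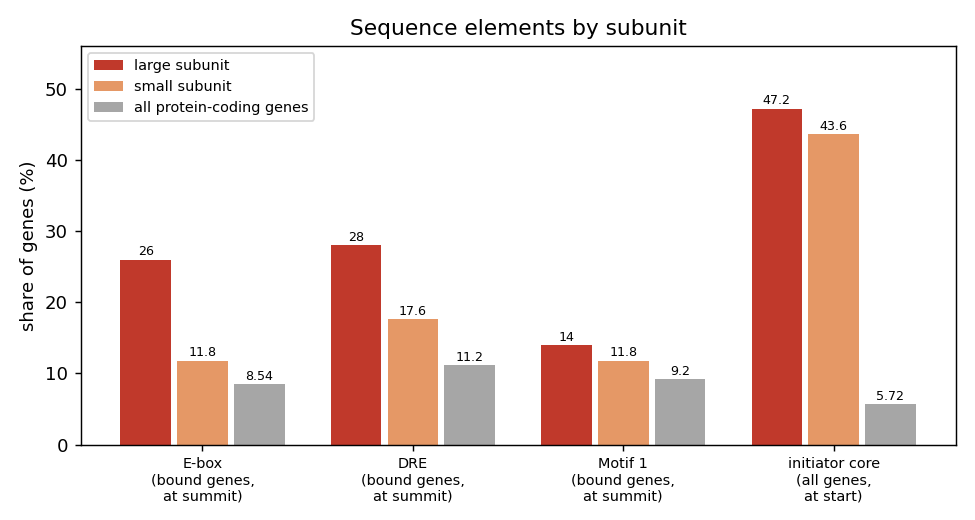
Share of genes (y axis, percent) with an E-box, a DRE or Motif 1 within 100 bp of the strongest summit, among bound genes. The initiator core share, among all genes, is for CTTT within 5 bp of the TSS of the canonical transcript. Bars are large-subunit, small-subunit and all protein-coding genes. In these windows the large subunit is above the small for each, by most for the E-box (26.0% and 11.8%). Around the canonical TSS, the DRE is instead less frequent in the large subunit (24.5%) than in the small (33.3%). Both subunits are far above all genes for the initiator core (47.2% and 43.6% against 5.72%).

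Other genes of the translation machinery that are known to share the pyrimidine-rich start were bound as well. All 9 of this list had a peak: eEF1alpha1 (948), Rack1 (472), eEF1gamma (442), Tctp (410), pAbp (405), eEF2 (277), eEF1delta (191), eEF1beta (176) and eEF1alpha2 (93.5). Of these eEF1delta, eEF2 and pAbp had CACGTG within 100 bp. The CTTT core, searched as above within 5 bp of the TSS, was found at eEF2, Rack1 and pAbp only. The 8 genes of regulators known at ribosomal protein promoters or of the response to their loss were also all bound. The DNA-binding factor Xrp1, induced when a ribosomal protein gene copy is lost, had 202 and its partner Irbp18 340. M1BP had 148 and Trf2, the TBP relative that acts at TCT promoters, 239. These lists were chosen with earlier results known, and the background for them is the same 38.1%.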

How the data were processed

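ChIP-seq peak lists of 2 biological replicates were used. Per the labels, they are the authors' dm6 lists: 1 per replicate, 1 pooled and 1 optimal. The deposited signal (the authors' enrichment value per region) was used as it stands, to rank regions within a list, and the summit was taken from the deposited offset. The optimal list was checked to be the 7451 strongest pooled regions. No source used here gives the peak caller, the aligner or the depth. The dm3 lists were not used.

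Starts came from Ensembl release 115 and sequence from the Release 6 reference. A bound gene has an optimal summit at most 500 bp from any TSS, and its strongest such summit was used. Both strands were searched for motifs, up to 100 bp from that summit. Protein identity came from global alignment (BLOSUM62, gap costs 11 and 1) of translated canonical coding sequences. No test was run, since there is 1 group, and the distance step was tested on simulated data. Tools were Python 3.11.15, numpy 2.4.6, pandas 2.3.3, biopython 1.88 and matplotlib 3.10.9.

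The members, lists and motifs were chosen with earlier results of these data known. Genes named were all copies and -like genes, the 10 strongest per subunit, all unbound, all with CACGTG, and all in 1 replicate's top list. Others were chosen after their values were seen. Some genes that the rule selects are counted but not reported here. Alternatives covered distance, starts, lists, replicates and motif windows.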

Additional observations from a re-analysis of the deposited data

How the results depend on the processing

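Of 72 values recomputed under the alternatives, 62 stayed within 1.5 times the reported count, or, for the median rank, within the spread of the replicates, and 10 did not. Pairs with both copies bound numbered 5 at 1000 bp, 6 in the full pooled list, where 3 pairs had exactly 1 copy, and 0 when genes with another start of a protein-coding gene within 500 bp were left out, which leaves fewer genes. In that last set 49 genes were bound, 29 of the large and 20 of the small subunit. CACGTG lay near the summit at 11 genes with windows of 50 bp and at 33 with 250 bp. The share of all bound genes was not computed for these windows, so the 2 counts stand without a background. CTTT within 2 bp of the canonical TSS was found at 18 genes, against 2.29% of all protein-coding genes. With 1 replicate left out, bound genes numbered 79 to 83, pairs with both copies bound 2 to 4, pairs with 1 copy 5 to 7, and the median rank 443 to 794. No paired analysis was possible because there is 1 group. Limits: the lists hold no counts, so no error can be given for a signal, and a gene without a peak may have binding below the authors' threshold. Near-identical copies can share reads, which was not tested.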
